A study of Mus musculus with 4 samples.

Results

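The genes described here are 10 feedback inhibitors of the mitogen-activated protein (MAP) kinases, the cascades that carry signals from the T cell receptor and cytokine receptors to the nucleus: the dual-specificity phosphatase genes Dusp1, Dusp2, Dusp4, Dusp5, Dusp6 and Dusp10, the Sprouty genes Spry1 and Spry2, and the Sprouty-related genes Spred1 and Spred2. They were chosen by name, with earlier results of these data known, and all 10 were found among the 26207 genes of the table. The study profiled mouse T helper 2 (Th2) cells by bulk RNA-seq. These are CD4 helper T cells that make the type 2 cytokines, and spleen is the stated tissue. Of 4 libraries, 2 were from cells given 10 µM dopamine and 2 from cells given phosphate-buffered saline (PBS). The strain, genotype, age, sex and length of treatment were not stated. The libraries are called dopamine A, dopamine B, PBS A and PBS B. In each group A is the lower and B the higher column number, and no pairing between groups is stated. Nothing in the labels ties a library to an animal or a culture. The spread within a group, on which every p-value rests, may therefore be technical.

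MAP kinases are switched on by phosphorylation and switched off again by phosphatases whose genes they themselves induce, which makes a negative feedback loop. The 3 main kinase branches are ERK, JNK and p38, and the dual-specificity phosphatases differ in which branch they act on and in whether they sit in the nucleus or the cytoplasm. Sprouty and Spred proteins act further upstream and hold back the passage from Ras to the kinase RAF. In T cells several of these genes are known as early responders to receptor stimulation. Dopamine is a catecholamine transmitter whose receptors are coupled to G proteins that raise or lower cyclic AMP.

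Libraries held 5717408 to 14167357 reads assigned to genes, and 1 read was worth 0.77 to 1.70 of the authors' normalized counts, the unit of all levels below unless a length is named. Fold changes are log2 differences, dopamine minus PBS, of log2(normalized count + 1), each with its standard error (SE). A gene was called when limma's Benjamini-Hochberg adjusted p over 26207 genes was below 0.05. Fold changes on this scale understate the change of genes with low values. Transcripts of helper T cells were present in every library, Cd4 at 4586 and 4749 in dopamine libraries and 4271 and 4236 in PBS libraries. Cd3e was at 440 and 451 in dopamine libraries and 345 and 414 in PBS libraries. The Th2 lineage factor Gata3 was at 207 and 241 in dopamine libraries and 243 and 231 in PBS libraries.

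With dopamine, 5 of the 10 feedback genes rose, 1 fell and 4 were not called. The nuclear phosphatase genes Dusp5, Dusp2 and Dusp4, the cytoplasmic phosphatase gene Dusp6 and the Sprouty gene Spry1 rose, with log2 fold changes of 0.45 to 0.96. Dusp10, whose product acts on JNK and p38, fell by 0.92 on the log2 scale. Dusp1, Spry2, Spred1 and Spred2 had log2 fold changes of -0.07 to 0.02. Among all genes 21.3% were called, 14.3% higher and 7.00% lower, and among the 8492 abundant genes, those averaging 100 normalized counts or more, these shares were 39.1% and 7.90%. Of the 8 feedback genes that were abundant, 5 were higher and 1 lower. The median log2 fold change was 0.23 over the 10 feedback genes, against -0.08 over all genes. It was 0.54 over those 8 feedback genes, against 0.20 over all abundant genes. With edgeR's TMM scaling 5 feedback genes were higher and 1 lower, where 34.0% of all tested genes were called, 18.2% higher and 15.8% lower. After the libraries were rescaled so that the median abundant gene did not differ, 5 were higher and 2 lower, where 6.90% of all genes were called higher and 12.1% lower. The median log2 fold change was then 0.04 over the 10 feedback genes, against -0.26 over all genes and 0.0027 over all abundant genes. The shares of abundant genes called after this rescaling are not given here. Each of the 5 genes called higher lay above both PBS libraries in both dopamine libraries, a pattern that 28.5% of all genes showed. Dusp10 lay below, as did 30.4% of all genes. The calls rest on the same 4 libraries, so this separation is no separate support for them.

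**Figure D1:**
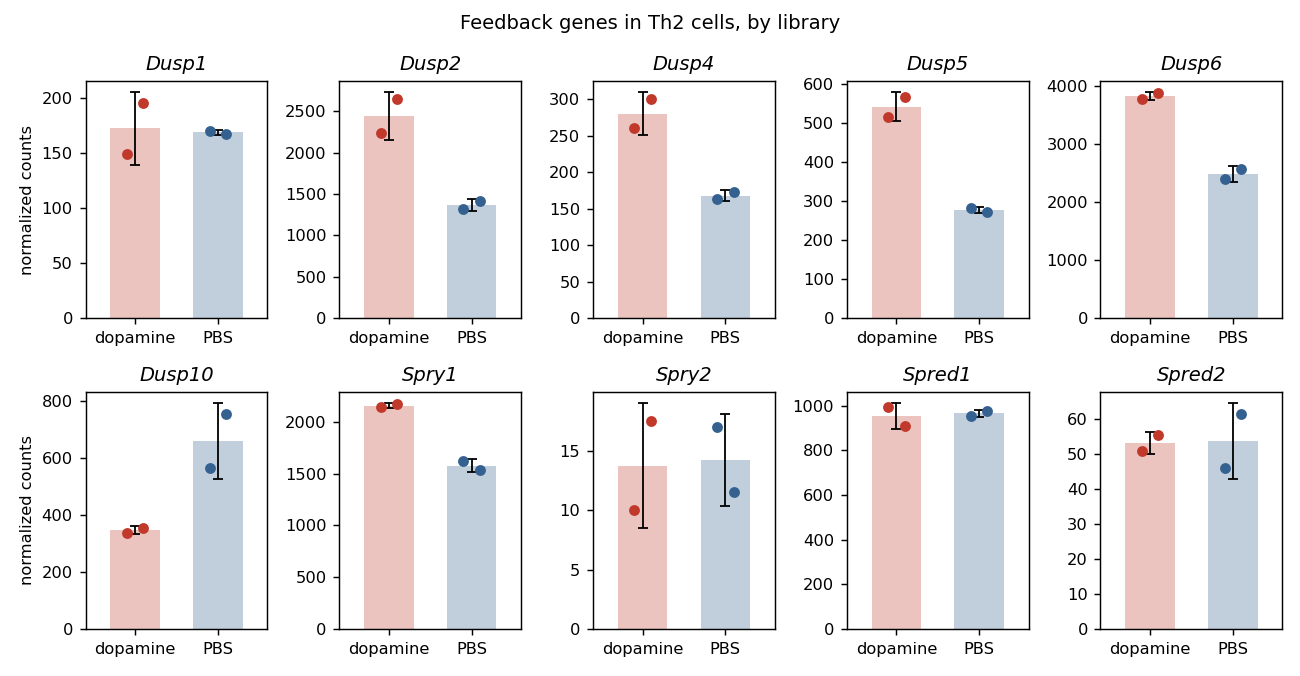
Normalized counts of the 10 feedback genes, with dopamine libraries left of PBS libraries in each panel. Points are libraries (A left, B right), bars are means and error bars are SD of n = 2. The dopamine points of Dusp2, Dusp4, Dusp5, Dusp6 and Spry1 lie above both PBS points, those of Dusp10 lie below, and the groups of the other 4 genes overlap.

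The promoter windows of 6 of the genes are printed because they set 4 of the 5 genes that rose beside the one that fell and beside Dusp1, which was not called. Dusp4 is the gene named without a window. Each runs from 250 bases before to 50 bases after the RefSeq start site on the gene's own strand (GRCm38.p6, the assembly of mm10), and 9 of the 10 genes had such a window. Capitals mark TGACG, the half-site of the cyclic AMP response element (CRE), read on either strand (CGTCA on the other), and the CArG box, the site of serum response factor, a transcription factor known to act with ETS factors downstream of ERK.
Dusp5 (chr19:53528895-53529194, plus strand): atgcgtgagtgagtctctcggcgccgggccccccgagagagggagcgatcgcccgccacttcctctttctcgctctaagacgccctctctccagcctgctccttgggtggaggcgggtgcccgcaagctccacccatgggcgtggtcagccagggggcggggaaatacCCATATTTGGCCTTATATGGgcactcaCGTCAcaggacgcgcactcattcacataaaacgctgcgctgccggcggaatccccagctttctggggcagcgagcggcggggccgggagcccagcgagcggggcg
Dusp2 (chr2:127335909-127336208, plus strand): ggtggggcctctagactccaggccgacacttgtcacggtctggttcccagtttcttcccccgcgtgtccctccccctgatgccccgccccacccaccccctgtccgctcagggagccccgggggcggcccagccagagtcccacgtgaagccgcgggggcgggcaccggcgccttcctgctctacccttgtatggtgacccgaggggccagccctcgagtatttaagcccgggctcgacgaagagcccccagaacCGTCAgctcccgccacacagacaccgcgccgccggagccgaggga
Dusp6 (chr10:99262981-99263280, plus strand): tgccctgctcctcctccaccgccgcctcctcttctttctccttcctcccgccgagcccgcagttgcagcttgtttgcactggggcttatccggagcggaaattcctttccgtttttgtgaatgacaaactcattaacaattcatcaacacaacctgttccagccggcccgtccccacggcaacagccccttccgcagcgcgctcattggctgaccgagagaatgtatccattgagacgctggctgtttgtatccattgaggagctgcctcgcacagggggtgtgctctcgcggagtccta
Spry1 (chr3:37639697-37639996, plus strand): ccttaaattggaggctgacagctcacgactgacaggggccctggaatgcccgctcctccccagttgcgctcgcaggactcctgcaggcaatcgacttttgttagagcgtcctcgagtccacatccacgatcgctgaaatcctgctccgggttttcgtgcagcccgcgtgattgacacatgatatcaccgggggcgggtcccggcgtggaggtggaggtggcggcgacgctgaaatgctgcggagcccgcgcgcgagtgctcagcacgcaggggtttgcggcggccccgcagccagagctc
Dusp10 (chr1:184034131-184034430, plus strand): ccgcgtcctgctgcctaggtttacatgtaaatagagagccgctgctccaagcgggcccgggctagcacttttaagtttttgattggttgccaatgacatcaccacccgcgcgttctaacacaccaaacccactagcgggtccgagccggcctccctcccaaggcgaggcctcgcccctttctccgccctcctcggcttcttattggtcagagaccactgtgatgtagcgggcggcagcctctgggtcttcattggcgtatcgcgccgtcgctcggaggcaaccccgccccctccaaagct
Dusp1 (chr17:26508423-26508722, minus strand): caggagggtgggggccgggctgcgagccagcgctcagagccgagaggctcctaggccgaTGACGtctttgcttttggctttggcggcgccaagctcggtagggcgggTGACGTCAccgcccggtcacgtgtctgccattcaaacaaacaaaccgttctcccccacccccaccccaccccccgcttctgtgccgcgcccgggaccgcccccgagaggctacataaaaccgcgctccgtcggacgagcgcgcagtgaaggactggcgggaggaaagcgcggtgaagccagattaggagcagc

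The window of Dusp5 held 2 CArG boxes side by side, with first bases at -82 and -72 from the start site, and a CRE half-site at -55. A CArG box occurred in 1.63% of the 32851 promoter windows of this length and a CRE half-site in 20.8%. The 9 windows were 57.0% to 72.3% G and C, against a median of 52.7% over all windows. The shares given here were not matched for this. Dusp2 held a CRE half-site at 6 bases past its start. Dusp6, Spry1 and Dusp10 held neither. Dusp1, which was not called, held 3 half-sites at -191, -143 and -140, and the last 2 of these form a full CRE, TGACGTCA, which occurred in 1.79% of windows. Spred2, also not called, held a half-site at -51. The ETS core CCGGAA, in 14.9% of windows, was found only in Spry2 among the 9, at 34 bases past the start. The AP-1 site TGANTCA, in 7.81% of windows, was found in 0 of the 9, as was TATAAA, in 13.6% of windows. GGAAA, the core of the NFAT site, was found in 6 of the 9 and in 61.3% of windows. The CCAAT box was matched 4 times in Dusp10 and 1 time each in Dusp6, Spry1 and Spred2, and at least 1 match occurred in 37.4% of windows. These matches describe letters only: genes that rose were found with and without them.

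**Figure D2:**
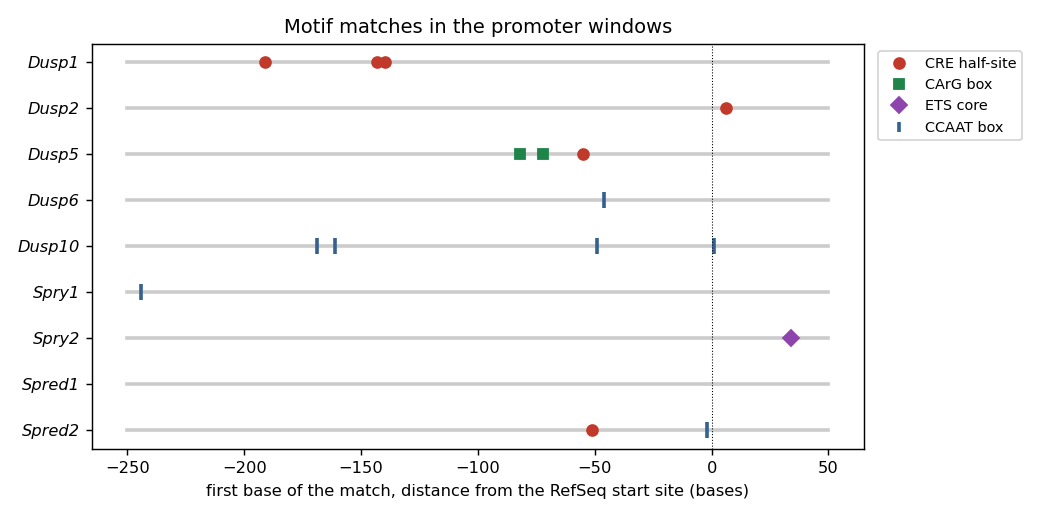
Positions of motif matches in the promoter windows of the 9 feedback genes that had one, as the distance of the first base of the match from the RefSeq start site. Dusp5 carries 2 CArG boxes and a CRE half-site, Dusp1 carries 3 CRE half-sites and Dusp10 carries 4 CCAAT boxes.

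Dusp5 encodes a nuclear phosphatase that acts on ERK and is known to be induced by IL-2 in T cells. It had 515 and 567 normalized counts in dopamine libraries, against 282 and 271 in PBS libraries, from 166 to 668 reads per library. Both dopamine libraries lay above both PBS libraries by more than either pair was apart. The means were 541 ± 36.6 with dopamine and 277 ± 7.61 with PBS (SD, n = 2 each), a log2 fold change of 0.96 (SE 0.11, limma adjusted p = 1.49e-09), the largest of the 10 genes. The gene lies on chromosome 19 from 53529109 to 53542431 on the plus strand (GENCODE M21, mm10). AC137853.2, annotated on the opposite strand, overlaps its start, and its reads were not analysed here.

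Dusp2 encodes PAC-1, a nuclear phosphatase found mainly in activated lymphocytes and other blood cells. It had 2232 and 2642 normalized counts in dopamine libraries, against 1316 and 1416 in PBS libraries. The dopamine libraries differed from each other by more than the PBS libraries did, yet the lower of them lay far above the higher PBS library. Dusp2 averaged 2437 ± 290.1 with dopamine and 1366 ± 70.3 with PBS (SD, n = 2 each), with a log2 fold change of 0.83 (SE 0.08, limma adjusted p = 1.2e-11). Dusp2 lies on chromosome 2 from 127336159 to 127338376.

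Dusp4 encodes MKP-2, a nuclear phosphatase of ERK and JNK. It had 260 and 301 normalized counts in dopamine libraries, against 163 and 173 in PBS libraries, with 96 to 337 reads per library. The groups did not overlap. The log2 fold change was 0.73 (SE 0.13, limma adjusted p = 2.44e-05). Dusp4 lies on chromosome 8 from 34807297 to 34819894.

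Dusp1 encodes MKP-1, the nuclear phosphatase known as an immediate early gene and as a target of stress signals and glucocorticoids. It had 149 and 195 normalized counts in dopamine libraries, against 170 and 167 in PBS libraries. The dopamine libraries lay on either side of both PBS libraries. The log2 fold change was 0.02 (95% interval -0.28 to 0.31, limma adjusted p = 0.948), and the log2 fold changes of Dusp5, Dusp2 and Dusp4 lie outside this interval. Its sign depended on the scaling, and with edgeR's TMM the log2 fold change was -0.079. Dusp1 lies on chromosome 17, and its annotated span on the minus strand runs from 26505590 to 26562128. Ergic1, on the opposite strand, overlaps this span only from 26561489 on. The printed window, set on the RefSeq start, lies inside the span and outside this overlap. Ergic1 had 811 and 892 normalized counts in dopamine libraries and 836 and 969 in PBS libraries. Whether reads were counted by strand is not stated, and a share of antisense reads in Dusp1 was not tested.

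Dusp6 encodes MKP-3, the cytoplasmic phosphatase that acts on ERK and is itself induced by ERK activity. It had 3775 and 3865 normalized counts in dopamine libraries, against 2387 and 2571 in PBS libraries. The 2 libraries of each group lay close together and the groups were well apart. Dusp6 averaged 3820 ± 63.5 with dopamine and 2479 ± 130.5 with PBS (SD, n = 2 each), a log2 fold change of 0.62 (SE 0.07, limma adjusted p = 4.24e-10). It lies on chromosome 10 from 99263231 to 99267489.

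Dusp10 encodes MKP-5, a phosphatase of JNK and p38 found in both cytoplasm and nucleus, and moved the other way. It had 336 and 355 normalized counts in dopamine libraries, against 566 and 753 in PBS libraries, from 333 to 983 reads per library. The PBS libraries were apart from each other, and both lay above both dopamine libraries. The means were 345 ± 14.0 with dopamine and 659 ± 132.6 with PBS (SD, n = 2 each), and the log2 fold change was -0.92 (SE 0.11, limma adjusted p = 8.63e-09). Without PBS B, the library with the higher level, it was -0.71. Dusp10 lies on chromosome 1 from 184013302 to 184075636, and its printed window, set on the RefSeq start, lies inside this span. The window overlaps 1700056E22Rik on the opposite strand, which had 2 to 13 reads per library.

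Spry1 encodes Sprouty 1, a cytoplasmic inhibitor of signalling from receptors to Ras and ERK. It had 2138 and 2174 normalized counts in dopamine libraries, against 1619 and 1534 in PBS libraries. The dopamine libraries were nearly level and lay above both PBS libraries. The log2 fold change was 0.45 (SE 0.07, limma adjusted p = 4.13e-06), the smallest of the 5 rises. It was 0.26 when libraries were rescaled on abundant genes, and the call held there (limma adjusted p = 0.00439). Spry1 lies on chromosome 3 from 37639947 to 37644598, and Gm42922, annotated across its start on the opposite strand, had 1 to 7 reads per library.

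Spry2, its close relative, was near the limit of detection. It had 10.0 and 17.5 normalized counts in dopamine libraries, against 17.0 and 11.5 in PBS libraries, which is 10 to 18 reads per library. The groups overlapped, and the 95% interval of the log2 fold change ran from -0.92 to 0.78, so a change as large as that of Spry1 was not detectable at this depth.

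Spred1 and Spred2 encode proteins that bring the Ras inhibitor neurofibromin to the membrane. Spred1 had 994 and 911 normalized counts in dopamine libraries, against 955 and 977 in PBS libraries. The dopamine libraries lay on either side of the PBS libraries, and the log2 fold change was -0.02 (95% interval -0.19 to 0.15, limma adjusted p = 0.889). Rescaled on abundant genes it was -0.22 and was called lower (limma adjusted p = 0.046), as it was with upper-quartile scaling in edgeR (-0.20, adjusted p = 0.037). Spred2 had 50.9 and 55.3 normalized counts in dopamine libraries, against 45.9 and 61.3 in PBS libraries. The dopamine libraries lay between the PBS libraries, and the 95% interval of the log2 fold change was -0.45 to 0.46.

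**Figure D3:**
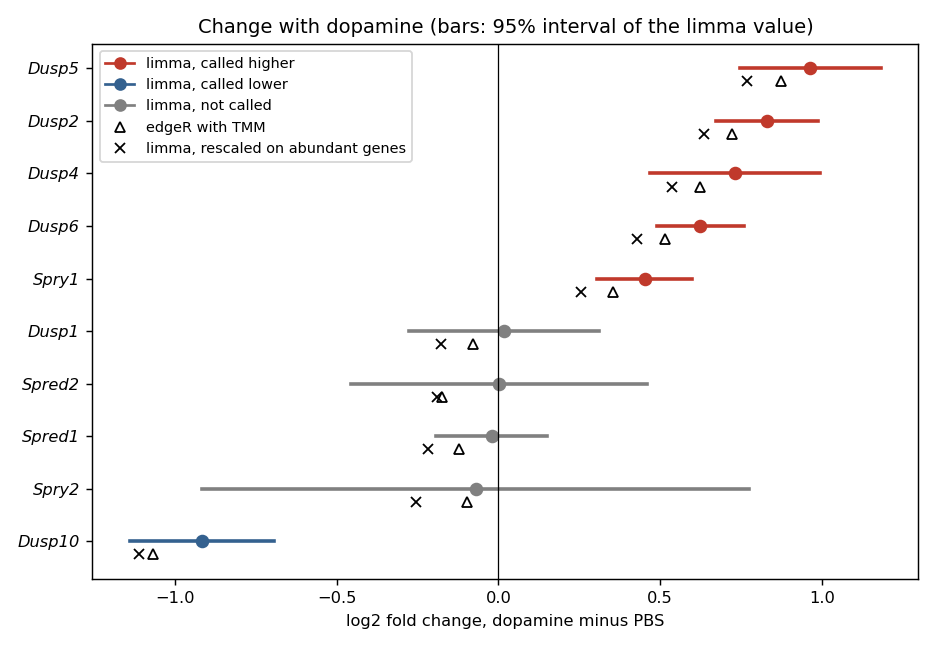
Log2 fold changes of the 10 feedback genes, dopamine minus PBS. Filled points are the limma values on the authors' normalized counts with 95% intervals as bars, triangles are edgeR with TMM scaling, and crosses are limma after rescaling on abundant genes. Dusp5, Dusp2, Dusp4, Dusp6 and Spry1 lie right of 0 and Dusp10 lies left of 0 in all 3, while Dusp1 and Spred2 change sides.

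In the authors' deposited table, made with DESeq2, the same 6 genes had an adjusted p below 0.05. The log2 fold changes there were 0.97 for Dusp5, 0.83 for Dusp2, 0.73 for Dusp4, 0.62 for Dusp6, 0.45 for Spry1 and -0.95 for Dusp10. Of the genes with an adjusted p in the authors' deposited table, 19.6% were called higher and 5.53% lower. All 15 alternatives tried kept the direction and the call of these 6 genes, including the removal of each library in turn.

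Genes can be set against each other only per length, so levels were divided by the summed length of each gene's annotated exons. Per kilobase Dusp6 and Dusp2 led, with 1220 and 1217 normalized counts per kilobase on average in dopamine libraries and 791 and 682 in PBS libraries. Spry1 followed with 742 normalized counts per kilobase with dopamine and 542 with PBS. Next came Dusp5, with 219 with dopamine and 112 with PBS, and Dusp10, with 114 with dopamine and 217 with PBS. The order of this pair was opposite in the groups, and each of the 4 libraries showed its group's order. Spred1 lay between them in both groups, with 140 with dopamine and 142 with PBS. Dusp4, Dusp1, Spred2 and Spry2 were lower, with group means of 102 down to 6.59 normalized counts per kilobase.

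Summed over the 10 genes, the level was 3676 and 3971 normalized counts per kilobase in dopamine libraries, against 2546 and 2689 in PBS libraries. The 6 phosphatase genes gave 2778 and 3068 of this in dopamine libraries and 1830 and 1999 in PBS libraries. Dusp6 and Dusp2 together made up most of the sum in every library. Dusp2 made up 30.3% and 33.2% in dopamine libraries, against 25.8% and 26.3% in PBS libraries. Dusp10 made up 3.0% and 2.94% of the sum in dopamine libraries, against 7.30% and 9.21% in PBS libraries. Dusp5 made up 5.67% and 5.77% in dopamine libraries and 4.48% and 4.08% in PBS libraries. Dusp6 was close to level, with 32.8% and 31.1% in dopamine libraries and 29.9% and 30.5% in PBS libraries. These shares are a description of 4 libraries and were not tested.

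**Figure D4:**
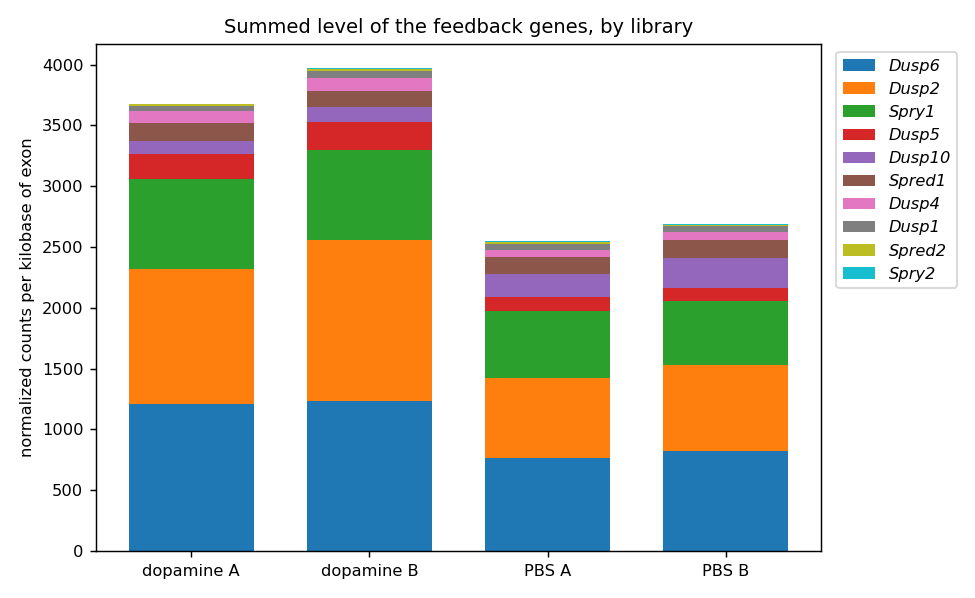
Summed level of the 10 feedback genes in each library, in normalized counts per kilobase of annotated exon, with 1 coloured segment per gene. The dopamine columns reach 3676 and 3971 and the PBS columns 2546 and 2689, and the Dusp10 segment is smaller in the dopamine columns.

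Of 14 other dual-specificity phosphatase genes 3 were called higher and 0 lower, where 14.3% of all genes and 39.1% of abundant genes were called higher. The median log2 fold change of the 14 was 0.11. Dusp16, whose product MKP-7 acts on JNK and p38, had 118 and 107 normalized counts in dopamine libraries, against 74.7 and 71.3 in PBS libraries. Its groups did not overlap (log2 fold change 0.61, SE 0.18, limma adjusted p = 0.0092), so 2 genes for phosphatases of JNK and p38, Dusp16 and Dusp10, had changes of opposite sign. The call of Dusp16 was lost in 4 of 15 alternatives, among them DESeq2 (adjusted p = 0.101). Dusp11, whose product acts on RNA, had a log2 fold change of 0.27, and 6 of 15 alternatives lost its call. Dusp14 had 0.75 on 22.1 to 54.8 normalized counts, and 12 of 14 alternatives lost its call. With edgeR's TMM 1 was higher and 1 lower, with a median of 0.024, where 18.2% of all tested genes were higher and 15.8% lower. When libraries were rescaled on abundant genes 0 were higher and 2 lower, and the median was -0.084. Of all genes 6.90% were then higher and 12.1% lower.

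Of 15 measured genes for other Sprouty, Spred and Ras-ERK brakes, 3 rose and 1 fell. The share that rose lies between the 14.3% of all genes and the 39.1% of abundant genes called higher. After rescaling on abundant genes 2 were higher and 2 lower, where 6.90% of all genes were higher and 12.1% lower. Dok2, an adaptor known to restrain T cell receptor signalling, had 1354 and 1489 normalized counts in dopamine libraries, against 737 and 837 in PBS libraries (log2 fold change 0.85, SE 0.09, limma adjusted p = 7.58e-11). Its relative Dok1 (log2 fold change 0.50) and Lztr1, an adaptor that leads Ras proteins to degradation (0.50), were also called higher. Lztr1 was at 0.30 with upper-quartile scaling in edgeR and 0.31 after rescaling on abundant genes, and was called in both. The call of Dok1 was lost without PBS A, without dopamine B and on rescaling (limma adjusted p = 0.0521). Rasa3, which speeds the hydrolysis of GTP on Ras and Rap, had 566 and 559 normalized counts in dopamine libraries, against 916 and 1027 in PBS libraries. The groups were far apart (log2 fold change -0.78, SE 0.09, limma adjusted p = 3.69e-09). Spry4 had 13.1 and 9.71 normalized counts in dopamine libraries and 13.6 and 6.90 in PBS libraries, from 8 to 17 reads per library.

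Of 18 genes on the route from Ras to ERK, 5 rose and 1 fell, and the share that rose lies between the 14.3% of all genes and the 39.1% of abundant genes called higher. The fall was in Rasgrp1, the exchange factor that loads Ras with GTP after T cell receptor stimulation. It had 2248 and 2332 normalized counts in dopamine libraries, against 4121 and 4477 in PBS libraries, so each dopamine library was well below each PBS library (log2 fold change -0.91, SE 0.07, limma adjusted p = 7.18e-15). Among the genes that rose were the exchange factor gene Sos2 (0.57), Hras (0.67) and Map2k2 (0.64), which encodes the kinase MEK2. Sos2 was at 0.38 after rescaling on abundant genes and Map2k2 at 0.42 with upper-quartile scaling in edgeR, both still called. The call of Map2k2 was lost with DESeq2 (adjusted p = 0.0529). When libraries were rescaled on abundant genes, 3 of the 18 were called higher and 4 lower, where 6.90% of all genes were higher and 12.1% lower.

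Of 21 genes on the JNK and p38 routes, 6 rose and 2 fell. Among all genes 14.3% were called higher and 7.00% lower, and among abundant genes 39.1% and 7.90%, so the share that rose lies between. After rescaling on abundant genes 5 of the 21 were higher and 3 lower, where 6.90% of all genes were called higher and 12.1% lower. The largest changes were in Gadd45g and Gadd45b, whose products bind the kinase MEKK4 upstream of p38 and JNK. Gadd45g had 1095 and 1176 normalized counts in dopamine libraries, against 440 and 445 in PBS libraries (log2 fold change 1.36, SE 0.09). Gadd45b had 163 and 148 normalized counts in dopamine libraries, against 62.9 and 56.7 in PBS libraries (1.36, SE 0.17). Mapkapk3, a kinase downstream of p38, rose (0.55, and 0.36 after rescaling on abundant genes, where it was still called), and Map3k1 (-0.37) and Map3k3 (-0.29), which encode kinases at the top of these routes, fell. The call of Map3k3 was lost in 5 of 15 alternatives, and Map3k1 lost its call without dopamine A. After rescaling on abundant genes Map3k1 was at -0.57 and Map3k3 at -0.48.

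Of 20 genes known to follow ERK activity, 11 rose and 0 fell, where 14.3% of all genes and 39.1% of abundant genes were called higher. Their median log2 fold change was 0.42, and 0.24 after rescaling on abundant genes. Junb, a subunit of the AP-1 transcription factor, had 1560 and 1689 normalized counts in dopamine libraries, against 695 and 677 in PBS libraries (log2 fold change 1.24, SE 0.08, limma adjusted p = 2.81e-16). The early genes Ier2 (1.00) and Ier5 (0.98) rose too. The other 9 genes of the list were not called. Among these, Fosb (-0.98, on 6 to 19 reads per library), Etv5 (-0.25) and Cd69 (-0.08) went the other way. Etv4 (0.06) and Phlda1 (0.18) were also among the 9. With edgeR's TMM 10 genes of the list were called higher and 1 lower, where 18.2% of all tested genes were higher and 15.8% lower. After rescaling on abundant genes 9 were higher and 1 lower, where 6.90% of all genes were higher and 12.1% lower.

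**Figure D5:**
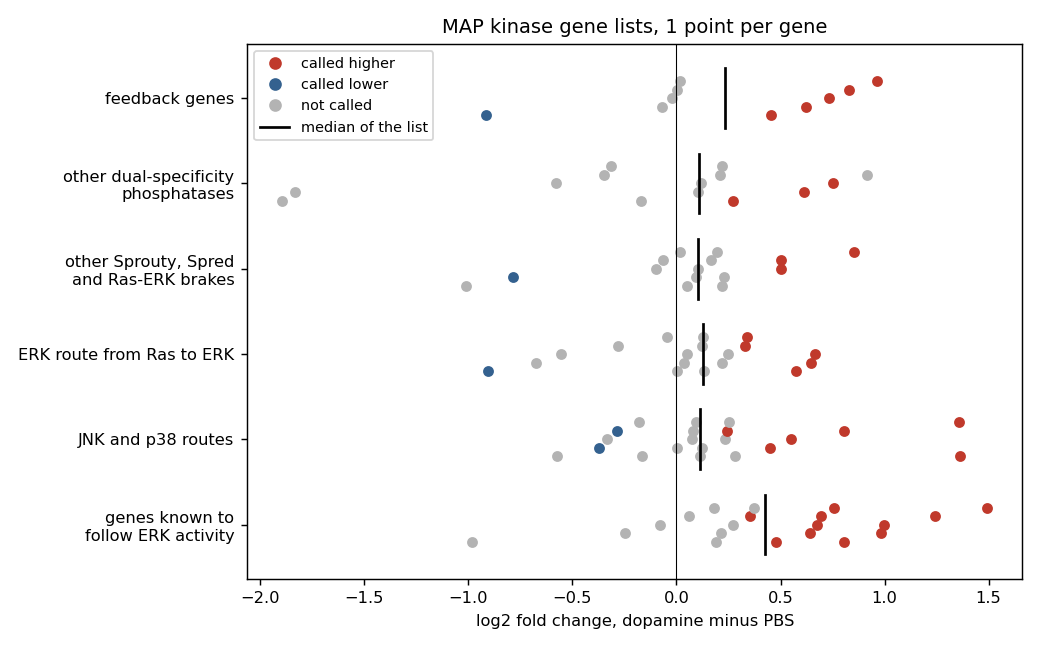
Log2 fold changes, dopamine minus PBS, of the feedback genes and of 5 lists of related MAP kinase genes, with 1 point per measured gene and a black bar at each list's median. Medians are 0.23 for the feedback genes, 0.11, 0.10, 0.13 and 0.11 for the 4 lists below them and 0.42 for the genes known to follow ERK activity. The medians of those 4 lists lie under the 0.20 of all abundant genes and above the -0.08 of all genes. After rescaling on abundant genes they turn to -0.084, -0.094, -0.070 and -0.081, where the median was 0.0027 over all abundant genes and -0.26 over all genes.

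Markers of other cell types moved between the groups, and fewer cells of a type cannot be told apart from less RNA per cell in bulk libraries. The counts below stand beside 14.3% of all genes called higher and 7.00% lower, and 39.1% and 7.90% of abundant genes. Of 9 measured of 10 listed basophil and mast cell markers 8 fell, with summed levels of 824 to 898 in dopamine libraries and 2243 to 2633 in PBS libraries. All 6 measured of 8 listed platelet and red cell markers fell, with sums of 428 to 491 in dopamine libraries and 1559 to 1830 in PBS libraries. Of 6 measured of 7 listed neutrophil markers 3 fell, with sums of 62.1 to 81.8 in dopamine libraries and 300.7 to 323 in PBS libraries. Most of each sum was Mpo alone, at 72.5 and 60.2 in dopamine libraries and 267 and 303 in PBS libraries. The other measured markers of this list had 0 to 12 reads per library. Of 7 measured of 8 listed markers of monocytes, macrophages and dendritic cells 2 fell, with sums of 232 to 265 in dopamine libraries and 314 to 348 in PBS libraries. The largest part of each sum was Ly6c2, at 138 and 167 in dopamine libraries and 173 and 154 in PBS libraries. Ly6c2 was not called (log2 fold change -0.10). Itgax (0.74) went the other way and was not called. Of 7 B cell markers 3 rose, with sums of 373 to 375 in dopamine libraries and 151 to 190 in PBS libraries. Cr2 (log2 fold change -0.52) and Pax5 (-0.06) went the other way and were not called. Of 6 markers of CD8 T and NK cells 2 rose, Eomes and Cd8a, with sums of 513 to 535 in dopamine libraries and 245 to 290 in PBS libraries. Eomes averaged 289 with dopamine and 136 with PBS. Klrb1c (-1.16) and Ncr1 (-0.49) went the other way on 2 to 11 reads per library and were not called. S100a8, S100a9, Ngp, Ly6g and Fcgr1 were at 0 in at least 1 library, and no measured marker was at 0 in all. The 7 helper T cell markers summed to 26142 to 26838 in dopamine libraries and 23670 to 25118 in PBS libraries, with 3 called higher and Trac lower (log2 fold change -0.27). The 3 became 0 with edgeR's TMM and on rescaling, and the call of Trac was lost without PBS B (limma adjusted p = 0.0724). The share of reads from mitochondrial genes was 4.08% to 4.62% in dopamine libraries and 5.64% to 6.22% in PBS libraries. The part of these differences in the changes of the feedback genes was not tested.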

How the data were processed

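The deposited table holds, per the file headers, the authors' DESeq2 results for dopamine against PBS (log2 values with errors, a Wald score and p-values). It also holds 4 columns of signal, which are the authors' read counts over 1 size factor per library. Per the submitters' processing notes the build was mm10 and the tools were FastQC 0.11.2, TopHat2 2.0.13, HTSeq 0.6 and R 3.6.2. No annotation or strand setting is stated. Columns are numbered 2 and 3 where titles have replicates 1 and 2, so each was matched to its group only. Reads were recovered as whole multiples of the value of 1 read (100% of values within 0.01), and edgeR called 5219 of 15329 genes on them.

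Limma 3.58.1 (R 4.3.3) was fitted to all 26207 genes on log2(value + 1) with a mean-variance trend and no filter, 2-sided. It drew each variance toward genes of like abundance with 42.4 prior degrees of freedom. The fits were tested on simulated data. Alternatives were edgeR 4.0.16 with 3 scalings or no filter, DESeq2 1.42.0, limma-voom, a pseudocount of 0.1, a 5 CPM filter, 2 rescalings, each library left out and a replicate block. Within a group, libraries differed beyond counting noise (chi-square per degree of freedom 3.98 for dopamine and 2.64 for PBS). The members, lists and tests were chosen with earlier results of these data known, and the motifs with the promoter sequences in view. Named were all members and, per list, up to 3 genes with the smallest p in each direction. Spry4, the uncalled genes of the ERK-following list, Itgax, Ly6c2 and genes overlapping members were named after their values were seen. Promoters are from RefSeq, gene spans and exon lengths from GENCODE M21.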

Additional observations from a re-analysis of the deposited data

How the results depend on the processing

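Dusp2, Dusp4, Dusp5, Dusp6, Dusp10 and Spry1 kept direction and call under all 15 alternatives, and without each library in turn 5 feedback genes were higher and 1 lower. The values that follow are counts past the threshold or log2 fold changes, and where no reason is given the cause was not tested. Rescaled on abundant genes, 1807 of all genes were higher and 3178 lower, 2 feedback genes were lower (Dusp10 and Spred1), and the higher and lower counts were 3 and 4 on the Ras to ERK route and 0 and 2 among other dual-specificity phosphatases. There 2 other brakes and 1 ERK-following gene were lower, Dusp1 was at -0.18, Spred2 at -0.19 and Cd4 at -0.062. With upper-quartile scaling in edgeR, 2013 of all genes were higher and 3149 lower, 2 feedback genes were lower (Dusp10 and Spred1), and the counts were 3 and 4 for the Ras to ERK route and 1 and 2 for other phosphatases. There 2 other brakes and 1 ERK-following gene were lower, Dusp1 was at -0.16, Spred2 at -0.25 and Cd4 at -0.055. With edgeR's TMM and with limma-voom alike, the lower counts were 2 for the Ras to ERK route, 2 for other brakes, 1 for ERK-following genes and 1 for other phosphatases, and 1 other phosphatase was higher. Dusp1 was at -0.079 and Spred2 at -0.17 with edgeR's TMM, and at -0.092 and -0.18 with limma-voom. With DESeq2, which gave an adjusted p to fewer genes, 719 of all genes and 1 gene of the JNK and p38 routes were lower, 1 other phosphatase was higher, and Spred2 was at -0.038. Among genes of at least 5 CPM, where fewer genes were tested, 894 of all genes and 2 of the Ras to ERK route were lower, 5 other brakes were higher, and Spry2 gave no value. With a pseudocount of 0.1, 1 gene of the JNK and p38 routes was lower. Spred2 was at -0.075 and Spry2 at 0.0030 in edgeR with the DESeq2 size factors, Spred2 at -0.095 in edgeR with no filter, and Dusp1 at -0.0023 and Spred2 at -0.018 with TMM scaling in limma. With the column number as a replicate block, 4627 of all genes were higher and 2372 lower, 5 feedback genes were higher and 1 lower, 2 genes of the Ras to ERK route and 1 other phosphatase were lower, and 5 other brakes were higher. Differences between libraries of the same number correlated across 8492 genes at 0.21, but with 2 pairs the libraries share only a number.

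Leaving out 1 library, which leaves 1 library in its group, gave 2152 to 3201 genes higher, with 2152 without PBS A and 2242 without dopamine B, against 3743 in all 4 libraries. It gave 762 to 1389 lower, with 762 without PBS A, 1034 without dopamine B and 1087 without PBS B, against 1834. The lone library is assumed to vary like those of the other group. The higher counts ranged from 1 to 2 for other phosphatases, 2 to 3 for other brakes, 4 to 5 for the Ras to ERK route, 5 to 6 for the JNK and p38 routes and 9 to 10 for ERK-following genes. The lower counts ranged from 0 to 1 for other phosphatases, 0 to 2 for the JNK and p38 routes and were 0 for ERK-following genes and 1 for other brakes and for the Ras to ERK route. Spred1 ranged from -0.084 to 0.042, Spry2 from -0.44 to 0.30, Dusp1 from -0.18 to 0.21, Spred2 from -0.20 to 0.21 and Gata3 from -0.19 to 0.025. Without dopamine B, Dusp1 was at -0.18, Spred1 at 0.042 and Spred2 at -0.058, without PBS A Spred2 was at -0.20 and Spry2 at 0.19, and without dopamine A Spry2 was at 0.30 and Gata3 at 0.025. None of these 7 values was called. Spry2, with 10 to 18 reads per library, is the feedback gene whose value depth limits most.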
